A study of Mus musculus with 23 samples.

Results

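Axon guidance ligands and receptors were described in A404 cells during their differentiation toward smooth muscle. Genes were taken by symbol: every ephrin (Efna, Efnb), Eph receptor (Epha, Ephb), semaphorin, plexin, neuropilin, Slit, Robo and Unc5 gene, with Ntn1 and Dcc, that a probe carried as its only symbol. This gave 38 genes on 52 probes, out of 8683 genes with a symbol of their own on the array. They comprised 6 ephrins, 4 Eph receptors, 13 semaphorins, 6 plexins, 2 neuropilins, 3 Slit and Robo genes, and 4 genes of the netrin system. By role, 21 were ligands and 17 were receptors.

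A404 is a single clone of P19, a mouse embryonal carcinoma line that retinoic acid can direct into several lineages. RNA came from 4 groups. Control cells (n = 6 arrays) were undifferentiated, grown near confluence and taken at 0 h. RA48 cells (n = 5) had 48 h and RA96 cells (n = 6) 96 h in 1 µmol/L all-trans retinoic acid, which was given at a lower density. Puromycin cells (n = 6) had 96 h in retinoic acid followed by 48 h under puromycin. Whether retinoic acid stayed in the medium during selection is not given. A404 is known for a puromycin resistance gene under the Acta2 promoter, so that the drug kills cells in which that promoter is silent. A replicate pooled 5 to 6 plates, and separate cultures are nowhere stated, so that every p-value reflects array-to-array spread that may be technical only.

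Axon guidance proteins steer growing nerve fibres and other migrating cells by attraction and repulsion. Ephrins sit on the cell surface and bind Eph receptor kinases on the neighbouring cell, and both sides can signal. Secreted class 3 semaphorins bind a neuropilin that is paired with a plexin, while most membrane-bound semaphorins bind plexins directly. Slits signal through Robo receptors, and netrin-1 attracts through Dcc and repels through Unc5 receptors. The same proteins act outside the nervous system: Nrp1 is also a co-receptor for vascular endothelial growth factor, Efnb2 marks arterial vessels, and Sema3c is needed for the outflow tract of the heart.

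Each value is a log2 ratio of the signal of the cells (Cy5) to that of RNA pooled from whole mouse embryos of day 17.5 (Cy3), which served as a common reference on all 23 arrays. Centring and direction of the deposited ratios are not given, and the direction was read from the dyes, so a ratio of 0 need not mean the same amount as in the embryo. Ratios were compared between groups for 1 gene at a time, and levels of single genes were not compared with one another. Medians, means and counts over several genes only describe the deposited scale. In such bulk RNA, fewer cells that carry a transcript and less transcript per cell cannot be told apart. A gene was called when its adjusted p was under 0.05 (limma, Benjamini-Hochberg over all 17863 rows). The course of differentiation was visible in Acta2, the smooth muscle actin gene, which averaged -4.90 ± 0.65 in Control, -0.34 ± 0.14 in RA48, 1.87 ± 0.13 in RA96 and 2.40 ± 0.26 in Puromycin cells (SD). Of 14 measured smooth muscle genes 12 were higher in Puromycin than in Control cells and 0 lower, and of 10 genes of undifferentiated cells 0 were higher and 8 lower. With the random block of array sets, described in the next paragraph, these were 9 higher for smooth muscle and 8 lower for undifferentiated cells. Both counts of 0 were also 0 at an unadjusted limma p under 0.05. In the same comparison 24.6% of all genes were called higher and 28.6% lower.

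Arrays of every group divided into 2 sets with no counterpart in the labels. In the first were replicates 1 to 3 of Control, RA48 and Puromycin and replicates 1 and 3 of RA96 (11 arrays), and in the second the other 12. The sets follow the sign of the first component of the deviations from group means, and that component took 48.9% of the variance within groups. Arrays of 1 group correlated at 0.83 to 0.98 within a set and at 0.70 to 0.85 between sets. These correlations use the values that defined the sets, so they add no separate support for the division. Every group lies in both sets, so each comparison could be repeated inside each of them, and many values that differ between the sets are given beside the gene. Treating each group's arrays of 1 set as a random block was the strictest fit. Calls that it kept or ended are named for each pairwise comparison, and its adjusted p stands beside some of the genes only. A call without such a value need not have survived it. Shares of all genes are from the fit without this block, so random-block counts have no background share beside them.

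Promoters are shown for the genes with the largest called rises, the top pair in Puromycin versus Control (Nrp1, Sema3c) and the top pair in RA48 versus Control (Efnb1, Efna5). Each runs 5′ to 3′ on the gene's strand from 250 bases before to 50 bases after the start of the RefSeq transcript (build GRCm38.p6). Capitals mark the retinoic acid receptor half-site AGGTCA and the GC box GGGCGG, or their reverse complements TGACCT and CCGCCC. Nrp1 lies at chr8:128358823-128359122 (plus strand), Sema3c at chr5:17574566-17574865 (plus), Efnb1 at chrX:99135811-99136110 (plus) and Efna5 at chr17:62881268-62881567 (minus).
Nrp1: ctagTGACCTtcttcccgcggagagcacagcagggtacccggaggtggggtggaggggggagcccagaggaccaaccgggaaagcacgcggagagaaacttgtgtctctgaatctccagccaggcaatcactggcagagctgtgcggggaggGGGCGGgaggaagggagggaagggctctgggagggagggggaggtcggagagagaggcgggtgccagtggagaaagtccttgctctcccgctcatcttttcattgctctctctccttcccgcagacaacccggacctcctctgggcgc
Sema3c: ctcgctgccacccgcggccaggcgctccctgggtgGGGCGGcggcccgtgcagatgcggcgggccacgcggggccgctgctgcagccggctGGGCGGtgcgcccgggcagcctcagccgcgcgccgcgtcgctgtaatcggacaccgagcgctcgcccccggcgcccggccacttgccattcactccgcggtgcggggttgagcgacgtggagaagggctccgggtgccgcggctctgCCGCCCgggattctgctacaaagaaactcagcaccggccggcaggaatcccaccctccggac
Efnb1: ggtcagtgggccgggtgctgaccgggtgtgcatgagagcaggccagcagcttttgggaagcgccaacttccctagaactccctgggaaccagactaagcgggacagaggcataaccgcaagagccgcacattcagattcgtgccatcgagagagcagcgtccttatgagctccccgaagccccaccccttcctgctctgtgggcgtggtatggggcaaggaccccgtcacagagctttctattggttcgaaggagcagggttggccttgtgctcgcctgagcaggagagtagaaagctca
Efna5: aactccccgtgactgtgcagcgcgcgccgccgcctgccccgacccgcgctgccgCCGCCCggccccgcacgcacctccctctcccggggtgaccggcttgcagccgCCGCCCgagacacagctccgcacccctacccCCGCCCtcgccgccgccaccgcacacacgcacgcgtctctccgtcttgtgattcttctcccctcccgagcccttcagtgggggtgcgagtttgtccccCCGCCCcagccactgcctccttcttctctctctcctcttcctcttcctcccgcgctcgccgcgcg

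The Nrp1 window held 1 half-site and 1 GC box, the Sema3c window no half-site and 3 GC boxes, the Efna5 window no half-site and 4 GC boxes, and the Efnb1 window neither motif. GC content was 64% for Nrp1, 75.7% for Sema3c, 59.7% for Efnb1 and 73.3% for Efna5. RefSeq promoters were found for 32 of the 38 genes (45 start sites). The half-site occurred in 7 of these 45 windows (15.6%), against 16.3% of all 32851 promoters of the same length. The GC box occurred in 34 of the 45 (75.6%), against 35.7% of all promoters and 46.2% of those of protein-coding genes. The longer element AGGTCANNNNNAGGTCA, a pair of half-sites in direct repeat, occurred in none of the 45 and in 0.00913% of all promoters, and the TATA box TATAAA in 2 of the 45, against 13.6% of all. Both strands were searched. The half-site is contained in the direct repeat, and a match describes letters in a window, not binding.

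Over the 4 groups, 28 of the 38 genes differed (F test), a share near that of all genes, of which 60.8% were called. The random block left 11 of the 38, and the share of all genes that it left is not given. The 28 comprised all 4 Eph receptors, both neuropilins, 5 of 6 ephrins, 11 of 13 semaphorins, 3 of the 4 netrin genes, 2 of 6 plexins and 1 of the 3 Slit and Robo genes. The 10 genes that were not called were Efnb3, Sema3e, Sema6b, Plxna3, Plxnb1, Plxnb2, Plxnc1, Robo2, Slit2 and Unc5b. Group means peaked in Control cells for 12 genes, in RA48 cells for 11, in RA96 cells for 9 and in Puromycin cells for 6. Among all genes 39.4% peaked in Control, 21.3% in RA48, 17% in RA96 and 22.3% in Puromycin cells. Means of the 38 were lowest in Control cells for 16 and in Puromycin cells for 14, against 32% and 28.9% of all genes. On the deposited scale, 18 of 38 stood below 0 on all 23 arrays, against 21.7% of all genes, and 1, Efnb2, stood above 0 on all, against 24.5%. The median of the 38 gene means was -0.77, against 0.06 over all genes. Another centring would shift these values. The opposite direction would turn their signs, swap the counts of 18 and 1, and reverse every rise and fall given here, that of Acta2 included.

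**Figure D1:**
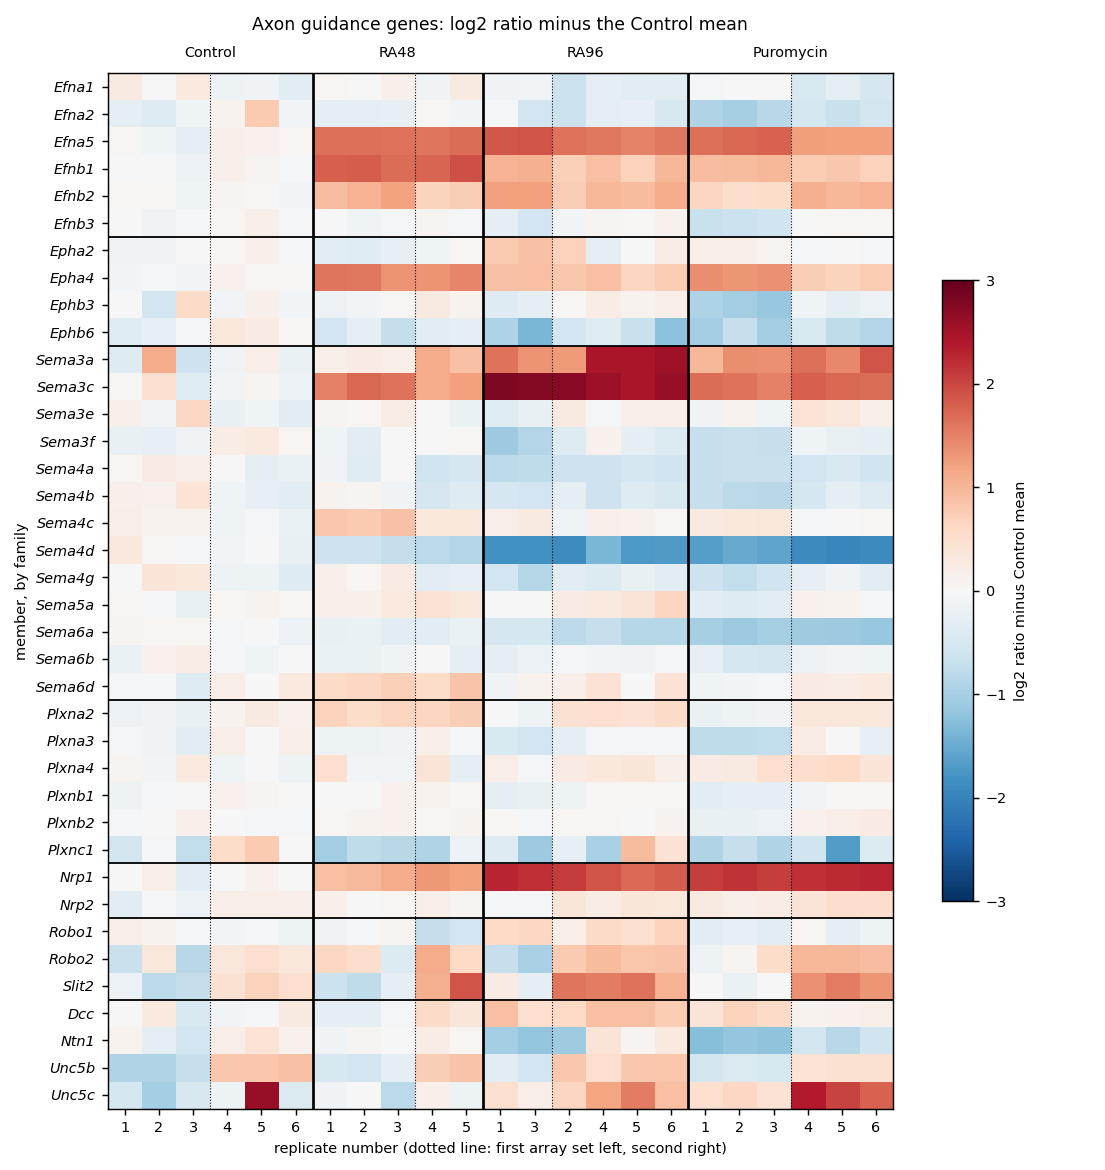
Each row is 1 of the 38 genes, ordered by family, and each column 1 of the 23 arrays, with replicate numbers below and dotted lines between the array sets. Colour gives the log2 ratio minus the gene's mean over the 6 Control arrays, from -3 (blue) to 3 (red). Efna5, Efnb1, Epha4, Sema3c and Nrp1 are red on all arrays after Control, and Sema4d and Sema6a are blue.

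After 48 h in retinoic acid more of the genes were higher than lower, with Efnb1, Efna5, Epha4, Sema3c and Nrp1 the largest rises. Control cells were grown near confluence and RA48 cells at a lower density, so retinoic acid and density cannot be told apart in this step. In RA48 versus Control 9 of the 38 genes were called higher and 3 lower, and 18.0% of all genes were called higher and 16.4% lower. The median change of the 38 was 0.05, and that of all genes -0.02. Among the called genes the groups overlapped in Sema4a alone. Overlap was read from the same arrays as the calls, so it adds no separate support, and its share among all genes is not given. With the random block 9 of the 12 calls were kept, all but those of Sema6d, Sema4a and Sema6a.

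Between 48 and 96 h, Sema3a, Sema3c, Nrp1, Robo1, Dcc and Epha2 were higher and 8 genes were lower, among them Sema4d, Efnb1 and Epha4. Background shares in RA96 versus RA48 were 10.8% of genes called higher and 11.6% called lower. The median of the 38 genes was -0.07, and that of all genes -0.03. Of the 9 genes that rose in the first 48 h, Sema3c and Nrp1 were called higher again, and Efnb1, Epha4, Sema4c and Sema6d were called lower. The random block kept 4 of the 14 calls, those of Sema4d, Efnb1, Nrp1 and Sema3c. RA48 arrays enter both steps, so a chance deviation in them moves the steps in opposite directions. RA96 arrays are shared in the same way by this step and the next, Puromycin versus RA96.

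After puromycin no gene of the 38 was called higher than at 96 h and 4 were called lower, Sema3c, Robo1, Sema5a and Sema6a. Among all genes 4.70% were called higher and 3.12% lower. The median of the 38 was -0.13, and that of all genes -0.01. None of the 4 kept its call when each group's arrays of a set formed a random block (adjusted p 0.226 for Sema3c, 0.459 for Robo1, 0.651 for Sema6a and 1.0 for Sema5a). At an unadjusted limma p under 0.05 the 38 genes gave 0 higher and 8 lower, and 0 higher and 3 lower with the random block. Shares of all genes at this unadjusted limit are not given, so these counts have no background. With the array set as an ordinary block 1 gene was called higher, Nrp2 (adjusted p = 0.0477). Puromycin cells were also taken 48 h later than RA96 cells. Selection, added time and any change in retinoic acid therefore cannot be told apart in this step.

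Over the whole course, Puromycin versus Control, 10 genes were called higher and 12 lower, against 24.6% and 28.6% of all genes. The medians were -0.02 for the 38 and -0.06 for all genes. Retinoic acid, the lower density at which it was given, time and selection all differ between these groups and cannot be told apart. Receptors were called higher in 5 of 17 and lower in 3, and ligands higher in 5 of 21 and lower in 9. The direction was the same in both array sets for 21 of the 22 called genes, the exception being Sema4g. Together the sets are the arrays that gave the calls, so this adds no separate support, and its share among all genes is not given. With the random block 9 of the 22 calls were kept: Nrp1, Sema3c, Efna5, Epha4, Efnb1, Efnb2, Sema4d, Sema6a and Sema4a.

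**Figure D2:**
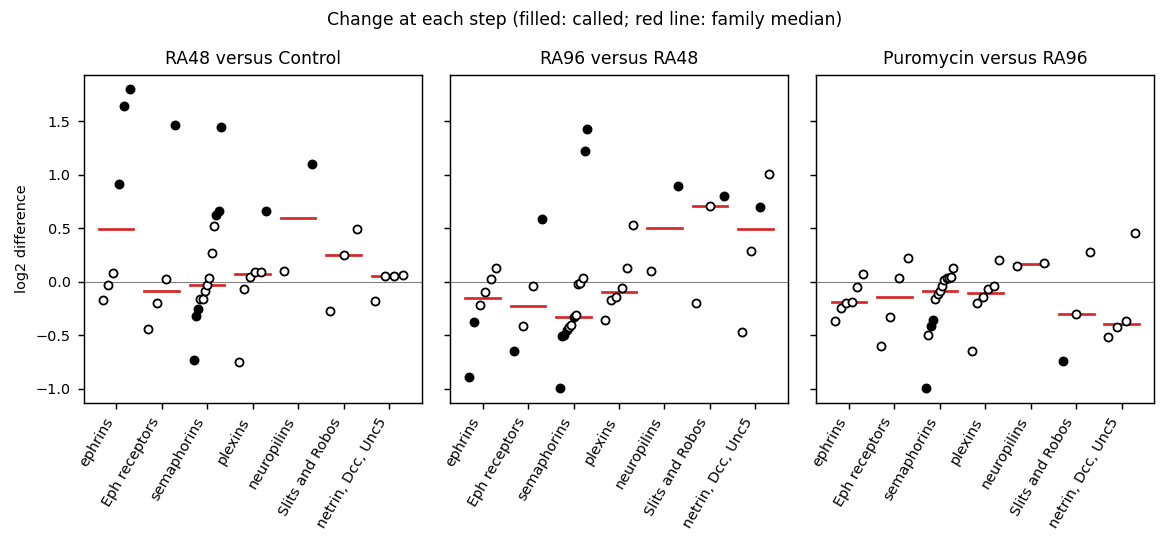
The log2 difference at each step (y axis) is plotted for every gene by family, with filled points for called genes and a red line at the family median. Called rises reach 1.79 (Efnb1) in RA48 versus Control and 1.43 (Sema3a) in RA96 versus RA48, and no point is filled above 0 in Puromycin versus RA96.

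Among the ephrins, Efnb1, a membrane-spanning ligand of EphB receptors, showed a peak at 48 h. Its log2 ratio was lowest at -0.93, median -0.76 and highest at -0.60 in Control cells, and the RA48 arrays read 1.04, 1.06, 0.92, 0.99 and 1.17. It spanned -0.06 to 0.31 in RA96 cells (median 0.19) and -0.06 to 0.24 in Puromycin cells (median 0.10). Control arrays lay below all others and RA48 arrays above all others, while RA96 and Puromycin arrays overlapped. Efnb1 was 3.47-fold higher in RA48 than in Control cells (log2 difference 1.79 ± 0.09 SE, adjusted p = 4.92e-13), 1.85-fold lower in RA96 than in RA48 cells (-0.89 ± 0.09, 3.07e-07) and 1.81-fold higher in Puromycin than in Control cells (0.85 ± 0.08, 1.54e-08). Both of its probes gave these calls.

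Efna5, a lipid-anchored ligand of EphA receptors, rose at the same step. Control arrays spanned -0.94 to -0.50 (median -0.61), the RA48 arrays read 0.99, 1.00, 0.97, 0.94 and 1.02, RA96 arrays spanned 0.82 to 1.23 (median 0.95) and Puromycin arrays 0.56 to 1.10 (median 0.79). No array after Control overlapped Control. The difference was 1.64 ± 0.11 in RA48 versus Control (3.12-fold, adjusted p = 2.31e-10) and 1.47 ± 0.11 in Puromycin versus Control (2.77-fold, 2.12e-10). The later steps were not called (0.03 ± 0.11 and -0.20 ± 0.11). In Puromycin versus Control the first set gave 1.83 and the second 1.11.

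Efnb2, the ephrin of arterial endothelium, followed a similar course. It spanned 0.06 to 0.26 in Control cells (median 0.22), read 1.10, 1.23, 1.38, 0.84 and 0.92 in RA48 cells, and spanned 0.92 to 1.42 in RA96 (median 1.24) and 0.72 to 1.26 in Puromycin cells (median 1.00). Control arrays again lay below all others. The difference was 0.91 ± 0.12 in RA48 versus Control (1.88-fold, adjusted p = 4.2e-06) and 0.81 ± 0.12 in Puromycin versus Control (1.75-fold, 6.07e-06). In Puromycin versus Control it was 0.59 within the first set and 1.02 within the second. Puromycin versus RA96 was called lower within the first set (-0.66, 0.00349) but not within the second (0.08, 0.616) or over all arrays (-0.24 ± 0.12, 0.29). Efna2 went the other way. Puromycin arrays spanned -1.43 to -0.98 and Control arrays -0.83 to 0.33, and Efna2 was 1.68-fold lower in Puromycin cells (-0.75 ± 0.15, 0.000386), with adjusted p = 0.107 under the random block. Efna1 was called once, in RA96 versus RA48 (-0.37 ± 0.13, 0.0434), with overlapping groups, and leaving out any 1 of 8 arrays ended the call (adjusted p up to 0.108). Efnb3 was called in no comparison, with differences between -0.31 and -0.03.

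Epha4, a receptor that binds ephrins of both classes, led the Eph receptors. It spanned -0.90 to -0.69 in Control cells (median -0.83), read 0.80, 0.76, 0.53, 0.52 and 0.65 in RA48 cells, and spanned -0.17 to 0.10 in RA96 cells (median 0.04) and -0.15 to 0.59 in Puromycin cells (median 0.23). Control arrays lay below all others, and RA48 arrays above those of RA96. Epha4 was 2.76-fold higher in RA48 than in Control cells (1.47 ± 0.12, adjusted p = 6.13e-09), 1.57-fold lower in RA96 than in RA48 cells (-0.65 ± 0.12, 0.00104; 0.0926 with the random block) and 2.06-fold higher in Puromycin than in Control cells (1.05 ± 0.12, 2.25e-07). The Puromycin arrays split by set, at 0.52 to 0.59 in the first and -0.15 to -0.05 in the second. Accordingly Puromycin versus RA96 differed by 0.48 within the first set (adjusted p = 0.0103) and by -0.06 within the second (0.687), and by 0.23 ± 0.12 over all arrays (0.348).

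Ephb6, an Eph receptor without kinase activity, and Ephb3 were lower at the end. Ephb6 spanned -0.83 to -0.22 in Puromycin cells (median -0.60) and -0.13 to 0.56 in Control cells (median 0.23), without overlap, a difference of -0.81 ± 0.16 (1.75-fold, adjusted p = 0.000272; 0.107 with the random block). Ephb3 spanned -2.56 to -1.55 in Puromycin cells and -1.98 to -0.86 in Control cells, with overlap, a difference of -0.62 ± 0.19 (0.0105). That of Ephb3 was -1.04 in the first set and -0.19 (adjusted p = 0.0948) in the second. Epha2, a receptor for ephrin-A ligands, was called in RA96 versus RA48 alone of the 4 comparisons (0.58 ± 0.16, 0.0128), with overlapping groups. It differed by 1.14 in the first set and by 0.20 (adjusted p = 0.576) in the second, and 1 of its 2 probes was called.

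Of the secreted class 3 semaphorins, Sema3c and Sema3a rose and Sema3f fell. Sema3c spanned -2.48 to -1.65 in Control cells (median -2.14), read -0.63, -0.41, -0.49, -1.02 and -0.89 in RA48 cells, and spanned 0.33 to 0.68 in RA96 cells (median 0.54) and -0.62 to -0.33 in Puromycin cells (median -0.46). Each of the first 3 groups stood clear of the next, RA96 arrays were the highest, and Puromycin arrays overlapped those of RA48. Sema3c was 2.72-fold higher in RA48 than in Control cells (1.44 ± 0.13, adjusted p = 9.52e-09), 2.32-fold higher in RA96 than in RA48 cells (1.22 ± 0.13, 7.31e-07), 1.98-fold lower in Puromycin than in RA96 cells (-0.99 ± 0.12, 2.55e-05) and 3.18-fold higher in Puromycin than in Control cells (1.67 ± 0.12, 1.39e-10). The fall after puromycin was -1.18 within the first set (adjusted p = 0.0052) and -0.86 within the second (0.000433).

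Sema3a, the founding repellent semaphorin, was more variable. It spanned -2.51 to -0.77 in Control cells (median -2.03), read -1.71, -1.63, -1.69, -0.77 and -1.01 in RA48 cells, and spanned -0.60 to 0.66 in RA96 cells (median 0.15) and -0.89 to 0.00 in Puromycin cells (median -0.46). RA96 arrays lay above RA48 arrays, and 1 Control array reached into the Puromycin range. Sema3a was 2.69-fold higher in RA96 than in RA48 cells (1.43 ± 0.29, adjusted p = 0.0016) and 2.73-fold higher in Puromycin than in Control cells (1.45 ± 0.28, 0.000181). With the random block these had adjusted p = 0.536 and 0.119. Sema3f spanned -1.40 to -0.85 in Puromycin cells and -0.97 to -0.43 in Control cells, a difference of -0.45 ± 0.16 (0.0296), and leaving out any 1 of 5 arrays ended the call (up to 0.0686). Sema3e, which can bind a plexin without a neuropilin, was called in no comparison (differences of -0.02 to 0.14).

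Class 4 semaphorins are membrane proteins. Sema4d, a ligand of plexin B1, had the largest fall of the 38 genes over the whole course. It spanned 0.86 to 1.38 in Control cells (median 1.05), read 0.46, 0.44, 0.35, 0.27 and 0.18 in RA48 cells, and spanned -0.81 to -0.29 in RA96 cells (median -0.70) and -0.89 to -0.43 in Puromycin cells (median -0.71). Control, RA48 and RA96 arrays were separate from one another, and RA96 and Puromycin arrays overlapped. Sema4d was 1.66-fold lower in RA48 than in Control cells (-0.73 ± 0.11, adjusted p = 2.03e-05), 1.98-fold lower in RA96 than in RA48 cells (-0.99 ± 0.11, 1.76e-06) and 3.37-fold lower in Puromycin than in Control cells (-1.75 ± 0.10, 5.94e-12). The whole change was -1.67 within the first set and -1.83 within the second.

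The other class 4 genes moved less. Sema4a spanned -1.06 to -0.82 in Puromycin cells and -0.64 to -0.13 in Control cells, without overlap, a difference of -0.60 ± 0.10 (1.52-fold, adjusted p = 5.55e-05). Its 2 smaller steps (-0.32 ± 0.11, 0.0323, in RA48 versus Control and -0.33 ± 0.11, 0.0366, in RA96 versus RA48) each lost their call without any 1 of 6 arrays, with adjusted p up to 0.111 and 0.134. Sema4b (-0.58 ± 0.13, 0.00115) and Sema4g (-0.44 ± 0.15, 0.0185) were also lower in Puromycin than in Control cells. These falls were larger in the first set, at -1.0 for Sema4b and -0.88 for Sema4g, against -0.16 (adjusted p = 0.214) and 0.00 (0.982) in the second. The Sema4g call also ended without Control replicate 2 (0.0522). Sema4c rose at 48 h. It read 0.41, 0.38, 0.48, -0.09 and -0.08 in RA48 cells and spanned -0.60 to -0.22 in Control cells, 0.62 ± 0.12 higher (0.000296), and was 0.51 lower in RA96 than in RA48 cells (-0.51 ± 0.12, 0.0045; 0.31 with the random block).

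Of classes 5 and 6, Sema6a, a ligand of A-type plexins, was called lower at every step in the mean of its probes. It spanned 0.75 to 1.02 in Control cells (median 0.97), read 0.71, 0.74, 0.60, 0.61 and 0.73 in RA48 cells, and spanned 0.07 to 0.44 in RA96 cells (median 0.19) and -0.21 to -0.06 in Puromycin cells (median -0.15). No neighbouring groups overlapped. The changes were -0.25 ± 0.08 (adjusted p = 0.0176), -0.45 ± 0.08 (0.000389) and -0.36 ± 0.07 (0.00449) at the 3 steps and -1.06 ± 0.07 (2.09-fold, 8.2e-11) over the whole course. Without RA48 replicate 3 the first step had adjusted p = 0.0501, and the random block ended the call of each step (0.335, 0.208 and 0.651). Its 3 probes disagreed. The whole change was -1.44, -0.14 (not called) and -1.61 by probe, the first step was -0.67, 0.20 (not called) and -0.29 (not called), and no single probe was called in Puromycin versus RA96.

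Sema6d rose at 48 h and was lower again at 96 h. Its RA48 arrays read -0.80, -0.76, -0.66, -0.83 and -0.51, Control arrays spanned -1.76 to -1.09, and RA96 arrays spanned -1.48 to -0.95. It was 0.66 ± 0.12 higher in RA48 than in Control cells (1.58-fold, adjusted p = 0.000246; 0.0811 with the random block) and 1.41-fold lower in RA96 than in RA48 cells (-0.49 ± 0.12, 0.00748; 0.428). Sema5a, a semaphorin with thrombospondin repeats, was 0.41 lower in Puromycin than in RA96 cells (-0.41 ± 0.11, 0.0331), with overlapping groups, and leaving out any 1 of 7 arrays ended the call (up to 0.0968). Of its 2 probes 1 was called (-0.66, against -0.16), and in Puromycin versus Control they went opposite ways (0.10, not called, and -0.40, 0.000356). Sema6b was 0.29 lower in Puromycin than in Control cells (-0.29 ± 0.09, 0.0137), with -0.49 in the first set and -0.08 (0.448) in the second.

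**Figure D3:**
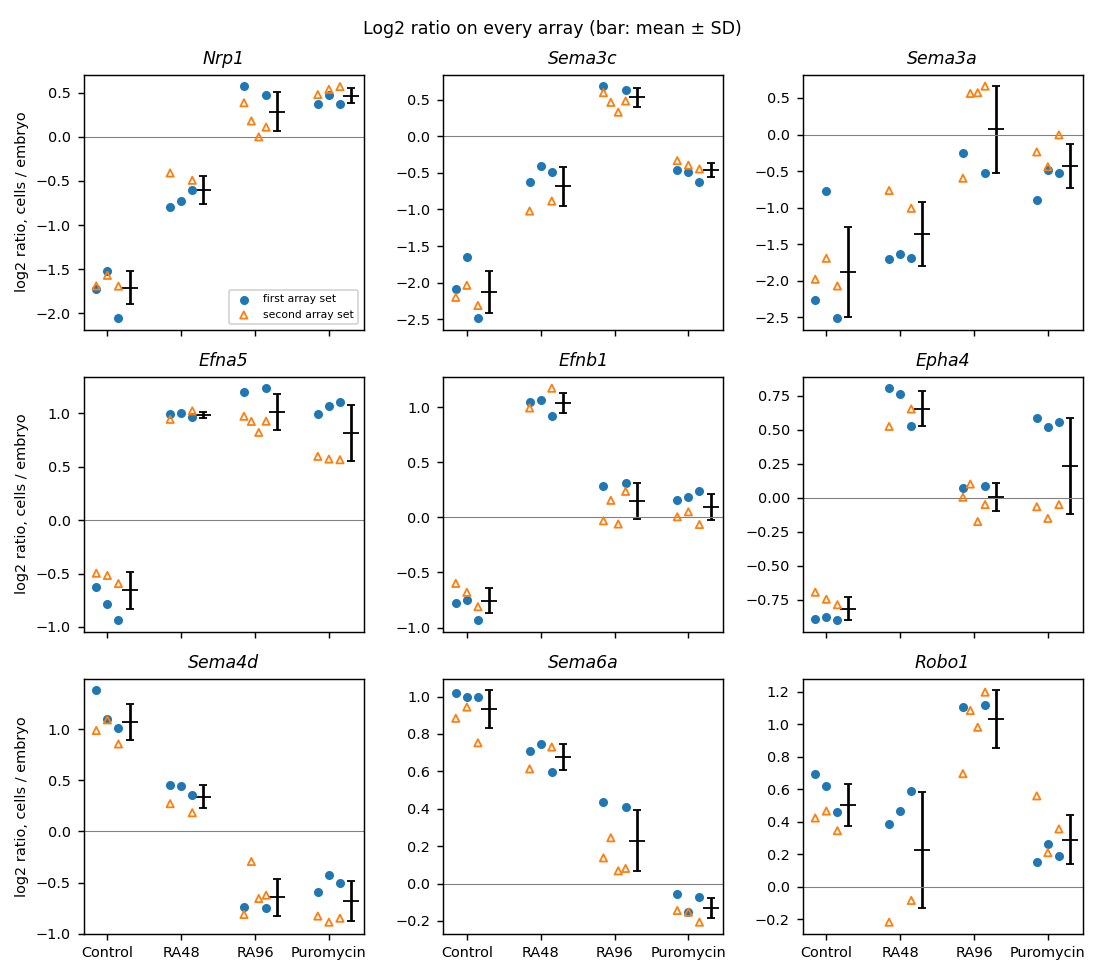
Each panel shows the log2 ratio of cells to embryo (y axis, its own range per panel) for 1 gene on every array of the 4 groups (x axis), with filled points for the first array set, open triangles for the second, and bars for mean ± SD. Nrp1 climbs to 0.47 in Puromycin cells, Sema3c peaks at 0.53 in RA96 cells, and Sema4d and Sema6a decline from group to group, Sema4d levelling after RA96.

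Nrp1, the co-receptor that binds class 3 semaphorins and vascular endothelial growth factor, had the largest rise of the 38 genes. It spanned -2.05 to -1.52 in Control cells (median -1.69), read -0.79, -0.73, -0.60, -0.41 and -0.49 in RA48 cells, and spanned 0.00 to 0.58 in RA96 cells (median 0.28) and 0.37 to 0.57 in Puromycin cells (median 0.47). Control, RA48 and RA96 arrays did not overlap one another. Nrp1 was 2.15-fold higher in RA48 than in Control cells (1.10 ± 0.11, adjusted p = 6e-08), 1.86-fold higher in RA96 than in RA48 cells (0.89 ± 0.11, 5.68e-06) and 4.52-fold higher in Puromycin than in Control cells (2.17 ± 0.10, 1.41e-13). The whole change was 2.17 in the first set and 2.18 in the second, and its 3 probes gave 1.35 to 3.39, each called. Puromycin versus RA96 was not called (0.18 ± 0.10, 0.413).

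Nrp2, which binds Sema3c and Sema3f, was slightly higher at the end. It spanned -0.96 to -0.61 in Puromycin cells and -1.45 to -0.93 in Control cells, a difference of 0.35 ± 0.10 (1.27-fold, adjusted p = 0.00863; 0.131 with the random block). Its single steps were between 0.10 and 0.15 and were not called.

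The plexins carry the semaphorin signal into the cell, and 3 of the 6 were called in a pairwise comparison. Plxna2 read -0.35, -0.49, -0.41, -0.41 and -0.31 in RA48 cells and spanned -1.27 to -0.79 in Control cells, without overlap, and was 1.58-fold higher (0.66 ± 0.14, adjusted p = 0.00109). This came from 1 of its 2 probes, which gave 1.38 and -0.07. Plxna4, a partner of neuropilins for Sema3a, was 0.42 ± 0.12 higher in Puromycin than in Control cells (1.34-fold, 0.00556; 0.337 with the random block), and 1 of 2 probes was called (0.69 and 0.16). Plxnc1, the receptor of Sema7a, spanned -1.37 to -0.09 in Puromycin cells and -0.43 to 1.09 in Control cells and was 1.82-fold lower (-0.86 ± 0.32, 0.0293). That call ended without Control replicate 4, Control replicate 5 or Puromycin replicate 5 (up to 0.0798), and its F test over 4 groups was not called. Plxna3, Plxnb1 and Plxnb2 were called in no comparison over all arrays, with changes of -0.38 to 0.09. Plxnb2 was called in opposite directions within the sets in Puromycin versus Control, at -0.24 in the first (0.0144) and 0.23 in the second (0.0121). Plxnb1, the receptor of Sema4d, differed by -0.16 ± 0.08 in Puromycin versus Control (0.137).

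Robo1, a receptor of Slits, rose between 48 and 96 h and was lower again after puromycin. It spanned 0.34 to 0.69 in Control cells (median 0.46), read 0.39, 0.47, 0.59, -0.22 and -0.08 in RA48 cells, and spanned 0.70 to 1.20 in RA96 cells (median 1.09) and 0.15 to 0.56 in Puromycin cells (median 0.24). RA96 arrays lay above those of the other 3 groups. Robo1 was 1.74-fold higher in RA96 than in RA48 cells (0.80 ± 0.13, adjusted p = 0.00019; 0.0503 with the random block) and 1.67-fold lower in Puromycin than in RA96 cells (-0.74 ± 0.12, 0.000747). The rise was 0.63 in the first set and 1.14 in the second, and the fall -0.91 and -0.61. Slit2 and Robo2 spread widely within groups and were called in no comparison. Slit2 spanned -1.49 to 0.23 in Puromycin cells and -2.10 to -0.60 in Control cells, a difference of 0.66 ± 0.47 (0.259). With the array set as a block the same difference had adjusted p = 0.00203, and it was 0.48 in the first set and 0.85 in the second. The corresponding Robo2 difference was 0.57 ± 0.35 (0.197), with 0.0273 under that block.

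In the netrin system Ntn1, Dcc and Unc5c were each called in 1 comparison, and the random block ended each call (adjusted p = 0.206, 0.522 and 0.397). Ntn1, netrin-1, spanned -0.94 to -0.22 in Puromycin cells (median -0.67) and -0.25 to 0.74 in Control cells (median 0.45) and was 1.91-fold lower (-0.94 ± 0.25, adjusted p = 0.00409). The difference was -0.97 in the first set and -0.90 in the second. The step of RA96 versus RA48 was -1.09 in the first set (0.000617), -0.22 in the second (0.704) and not called over all arrays (-0.47 ± 0.26, 0.218). Dcc, the attractive netrin receptor, spanned -0.47 to -0.07 in RA96 cells and -1.27 to -0.39 in RA48 cells, with overlap, 0.69 ± 0.16 higher (0.00506). Its 2 probes gave 1.31 and 0.08, and the difference was 0.90 in the first set and 0.32 (adjusted p = 0.117) in the second. Unc5c, a repulsive netrin receptor, spanned -0.85 to 1.11 in Puromycin cells (median -0.08) and -2.29 to 1.33 in Control cells (median -1.74), a difference of 1.29 ± 0.47 (2.44-fold, 0.0282). Control replicate 5 alone among Control arrays was above 0. Without it the difference was 1.81, and leaving out any 1 of 7 other arrays ended the call (up to 0.0735). Unc5b was called in no comparison over all arrays. In Puromycin versus Control its -0.02 ± 0.39 averaged opposite calls, 0.35 within the first set (adjusted p = 0.0135) and -0.40 within the second (0.00509), and its Control arrays spanned -2.13 to -1.92 in the first set and -0.40 to -0.34 in the second.

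**Figure D4:**
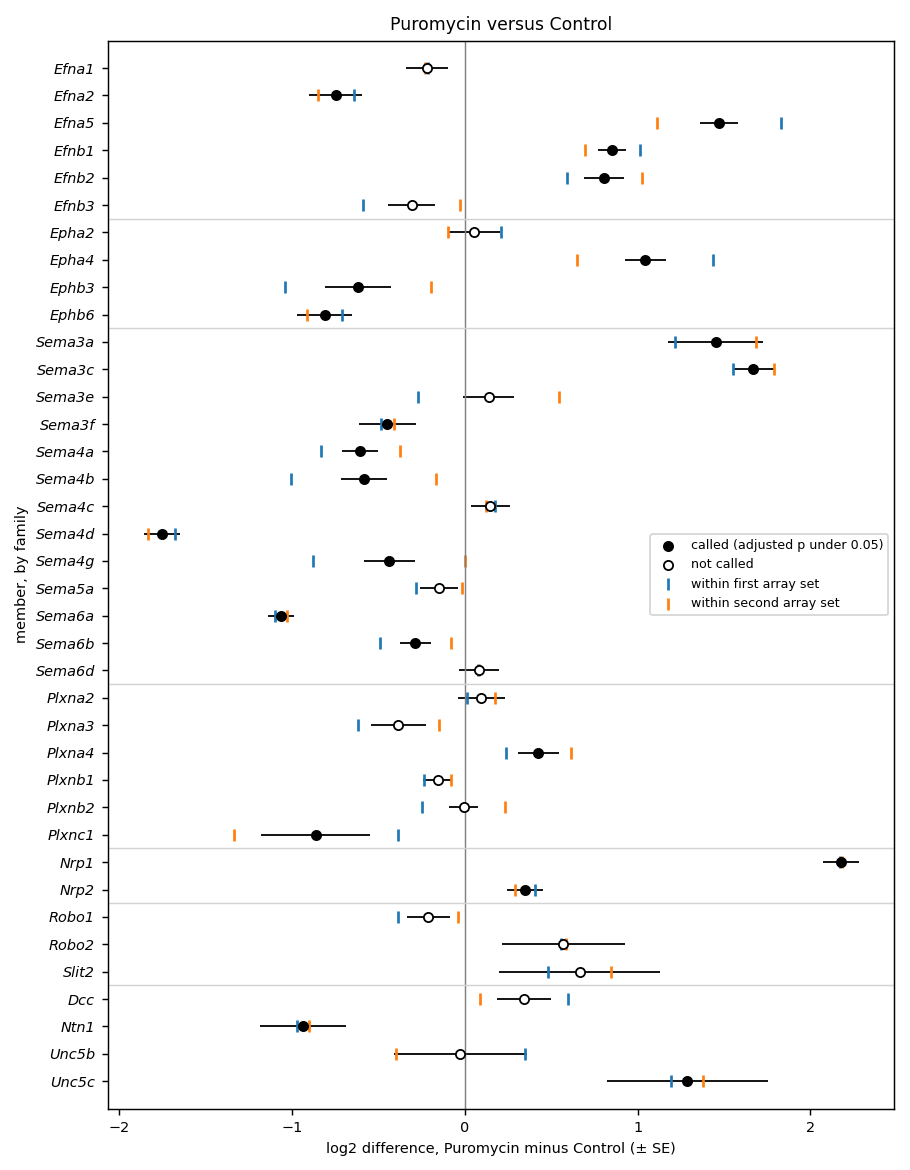
The log2 difference, Puromycin minus Control, is drawn for each of the 38 genes (rows, by family) with its SE, filled where called, and ticks give the difference within each array set. Nrp1 (2.17) and Sema4d (-1.75) are the extremes, and for Sema4b, Sema4g and Ephb3 the ticks of the second set lie near 0.

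Other genes of the pathway were taken from a list of co-receptors, adaptors and effectors that act beside or below these receptors, of which 39 of 64 were measured. In RA48 versus Control 16 were called higher and 2 lower (median 0.21), in RA96 versus RA48 5 and 5 (-0.04) and after puromycin (Puromycin versus RA96) 5 and 0 (0.03; 6 lower at an unadjusted limma p under 0.05). Over the whole course 18 were higher and 6 lower (0.26). With the random block the counts were 7 and 0 in RA48 versus Control, 2 and 0 in RA96 versus RA48, 0 and 0 after puromycin, and 13 and 1 over the whole course. Without the block 18.0% of all genes were called higher and 16.4% lower in RA48 versus Control, and 10.8% and 11.6% in RA96 versus RA48. These shares were 4.70% and 3.12% after puromycin, and 24.6% and 28.6% over the whole course. The 4 largest called rises of the list were Dpysl3, Flrt2, Rtn4 and Pak2. Dpysl3, a collapsin response mediator that acts below semaphorins, averaged 0.49 ± 0.94 in Puromycin cells and -3.11 ± 0.48 in Control cells, 12.2-fold higher (3.60 ± 0.32, adjusted p = 4.83e-09). Flrt2, a membrane ligand of Unc5 receptors, averaged 0.86 ± 0.22 in Puromycin cells and -1.85 ± 0.29 in Control cells (2.71 ± 0.17, 8.73e-12). Rtn4, which encodes the growth inhibitor Nogo, averaged 1.59 ± 0.12 in Puromycin cells and -0.08 ± 0.15 in Control cells (1.68 ± 0.09, 1.17e-12). Pak2, a kinase activated by Rac and Cdc42, was 1.07 ± 0.29 higher (0.0042), but 1 Puromycin array, replicate 2, read 3.33 beside a median of 0.94, and without it the difference was 0.67.

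The 4 largest called falls on that list were small. Tiam1, an exchange factor for Rac, was 1.85-fold lower in Puromycin than in Control cells (-0.89 ± 0.08, adjusted p = 4.66e-09). Mical1, a redox enzyme below plexins, was 0.52 lower (-0.52 ± 0.12, 0.00108), Dpysl5 0.41 lower (-0.41 ± 0.12, 0.0063) and Pak3, a neuronal kinase, 0.36 lower (-0.36 ± 0.10, 0.00414). The random block ended the calls of Mical1 (0.157), Dpysl5 (0.0826), Pak3 (0.246) and Pak2 (0.319).

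Markers of other cell types that use these genes were read beside them, and their part in the changes above was not tested. For the counts here and in the next paragraph, 24.6% of all genes were called higher and 28.6% lower in Puromycin versus Control. Of 13 measured neuronal genes 1 was called higher and 4 lower in Puromycin versus Control cells, and 1 and 2 with the random block. Gap43 was 2.15 ± 0.20 higher, and Elavl2 (-0.54 ± 0.11) and Stmn2 (-0.43 ± 0.08) were lower. The mean ratio over these 13 genes spanned -0.95 to -0.40 over the Puromycin arrays and -0.93 to -0.34 over the Control arrays. Of 4 genes of neural progenitors and glia 2 were higher (Vim 3.43 ± 0.19, Nes 0.69 ± 0.24) and 1 lower (Olig1 -0.56 ± 0.18). The random block left 1 higher and 0 lower, and their mean spanned 0.30 to 0.68 over Puromycin and -1.06 to -0.22 over Control arrays. Vim, which averaged -0.43 in Control and 3.00 in Puromycin cells, had the largest change of the 4 and weighs most in that mean. Pax6 was not called. The Nes call ended without any 1 of 5 arrays (adjusted p up to 0.0694).

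Endothelial markers were called higher in 4 of 7 and lower in 2, and with the random block higher in 2 and lower in 0. The fall of 1 of them, Eng, also ended without any 1 of 6 arrays (adjusted p up to 0.0647). Flt1 was 1.34 ± 0.10, Kdr 0.89 ± 0.10 and Pecam1 0.78 ± 0.17 higher in Puromycin than in Control cells (adjusted p = 1.81e-10, 2.25e-07 and 0.00063). Their mean ratio spanned -1.05 to -0.59 over the Puromycin arrays and -1.65 to -0.96 over the Control arrays. Of 11 genes of neural crest and mesenchyme 7 were higher and 0 lower (also 0 at an unadjusted limma p under 0.05), and 5 were higher with the random block. They were led by Fn1 (2.84 ± 0.35), Prrx1 (1.76 ± 0.27) and Snai1 (1.59 ± 0.23), and their mean spanned -0.90 to -0.26 over Puromycin and -1.95 to -1.33 over Control arrays. The mean of the smooth muscle genes spanned -0.26 to 0.81 over Puromycin and -2.55 to -1.31 over Control arrays, led by Acta2 (7.30 ± 0.21), Myl9 (4.56 ± 0.22) and Actg2 (3.25 ± 0.65). The mean of the genes of undifferentiated cells spanned -0.06 to 0.15 over Puromycin and 2.38 to 2.73 over Control arrays, with Sox2 (-5.70 ± 0.49), Dnmt3b (-5.04 ± 0.14) and Utf1 (-3.82 ± 0.12) lowest.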

How the data were processed

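RNA of A404 cells (Cy5) and of pooled day 17.5 mouse embryos (Cy3) was hybridized to 23 Agilent arrays with no dye swap, per the labels, and read with an Agilent G2565AA scanner and Feature Extraction A.6.1.1. Deposited values are log10 ratios, 1 for each probe on an array. Neither their base, nor centring, nor direction is given: range gave the base, and the dyes gave the direction. No intensities were used here, so whether a probe stood above background is unknown, and the number of arrays limits the precision. Of 21446 rows, 1166 with at most 6 significant digits on every array and no gene were left out as probable control spots. Division by log10 of 2 turned the deposited values into log2 ratios, and probes with 1 symbol (11100 of 20280, against 442 with several and 8738 with none, by the platform's annotation) were averaged per gene, 8683 genes in all. With the other probes as rows of their own this made 17863 rows. The 12 genes of the 38 with more than 1 probe were also fitted by probe.

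Group means of all arrays were fitted with limma 3.58.1 under R 4.3.3, using its empirical Bayes step. Adjusted p-values are Benjamini-Hochberg values over all rows, for 4 pairwise comparisons and an F test, and the threshold was 0.05. The array sets were found from the first component of the deviations from group means. Replicate numbers were not taken to pair the arrays. The members, the gene lists and the settings were chosen with earlier results of these data known. Named in full were the 6 largest called rises and 6 largest called falls among the 38 genes in each comparison, and the 4 largest rises and 4 largest falls of the co-receptor and effector list and the 3 largest called changes of each marker list in Puromycin versus Control. All 38 genes are accounted for. Other settings comprised median centring, quantile normalization, array weights, array sets as a block, alone or as a random block, replicate blocks, the groups of a comparison alone, and each array left out. The fit was tested on simulated data. Symbols of 38 of 38 members matched RefSeq.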

Additional observations from a re-analysis of the deposited data

Results flagged for a closer look

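In groups of 5 or 6 arrays, 4 of 152 combinations of gene and group held an array far from the others of its group, and chance alone flags about 1 in 20. Nrp1 read -2.05 on Control replicate 3, below the other Control arrays (-1.72 to -1.52). Plxnb2 read -0.75 on the same array, above the others (-0.97 to -0.89). Sema4d read -0.29 on RA96 replicate 4, above the others (-0.81 to -0.62), and its groups RA96 and RA48 still did not overlap. Unc5c read 1.33 on Control replicate 5, above the others (-2.29 to -1.42).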

How the results depend on the processing

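The counts of genes called were 12, 14, 4 and 22 in RA48 versus Control, RA96 versus RA48, Puromycin versus RA96 and Puromycin versus Control, and 28 by the F test over all 4 groups. Leaving out each array in turn gave 11 to 13, 12 to 15, 3 to 5, 20 to 23 and 25 to 28. Treating the arrays of 1 group and set as a random block (correlation 0.675) moved RA96 versus RA48 to 4, Puromycin versus RA96 to 0, Puromycin versus Control to 9 and the F test to 11. In RA96 versus RA48 the first array set alone gave 23 and the second 9. In Puromycin versus RA96 these gave 8 and 7, and array weights gave 10. With the array set as a block the calls in RA96 versus RA48 were 6 higher and 15 lower, against 6 and 8 without it. Changes of at least 2-fold among called genes numbered 5, 2, 0 and 8, and reading the deposited values as log2 ratios left 0 in each comparison. Of the 152 changes of 1 gene in 1 comparison, 37 had the opposite sign in at least 1 array set. In 3 of these the value was called over all arrays or within that set, all in Puromycin versus Control: Unc5b at 0.35 in the first set, and Plxnb2 at 0.23 and Sema4g at 0.0028 in the second. With the replicate number as a block the counts were 14, 17, 5, 27 and 32. These numbers are not known to pair the arrays: deviations of 33 same-numbered pairs correlated at -0.46 to 0.67, 30 of them above 0.1, and 4 arrays correlated best with their own number. Median centring, and keeping the control-like rows, changed no call of the 152. The cause of these differences was not tested. Ratios near or below background cannot be recognized without intensities.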
